A study of Mus musculus with 18 samples.

Results

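Interferon-stimulated genes were followed in mouse CD4 T cells that lack Id3 (KO) and in wild-type cells (WT). The 54 genes were taken from a named list of interferon-stimulated genes by their symbols, and 53 of them were among the 12547 genes of the deposited expression table. The exception was Mx1, which is not analysed here. Naive cells were stimulated on anti-CD3 and anti-CD28 beads in a medium with IL2, IL12 and anti-IL4, which favours Th1 cells. There were 6 groups of 3 RNA-seq libraries, KO and WT cells of sets 3, 5 and 6. The same culture is described for all groups, but whether its conditions differed between sets is not stated. No label gives the meaning of the set numbers. In contrast names of the authors' deposited table, set 3 goes with 24 and sets 5 and 6 go with 96, without a unit. Strain, age, sex and number of mice, and whether the knockout was confined to T cells, are not given in the sources used here. It is not stated either that replicates came from separate mice, so a p-value here reflects only how far these libraries scatter, which may be technical.

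Interferons act through receptors that signal by Janus kinases and STAT proteins. Type I interferons assemble a complex with Stat2 and Irf9 that binds a DNA element called ISRE, whereas interferon gamma, the main cytokine of Th1 cells, acts through STAT dimers that bind an element called GAS and through the transcription factor Irf1. Genes for guanylate-binding proteins (Gbp) and immunity-related GTPases (Irg), which attack vacuoles that hold microbes, are classic targets of interferon gamma, while Ifit, Oas and Isg15 genes, which act on viral RNA and proteins, are classic targets of type I interferons. Id3 is an inhibitor of E proteins, a family of transcription factors that control T cell development.

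Values are log2 levels after each library was shifted to a common median over all genes, so that a difference is relative to the median gene. As deposited, the median gene was higher in KO than in WT cells by 0.39 in set 5 and 0.42 in set 6 (log2), so counts of calls are also given as deposited for the main groups of genes. The deposited values of a group were nearly identical after sorting (97.0 to 98.4% of them), which narrows the spread within groups and may lower p-values. Depth per library is unknown. No member was at the lowest value of any library. Id3 itself was at 0.68 to 5.41 in the 9 KO libraries and at 8.98 to 10.2 in the 9 WT libraries, and 7 measured T cell markers, Cd4 among them, had a summed level of 15.2 to 15.3 in KO and 15.5 to 15.6 in WT cells of set 3 and of 16.1 to 16.3 in the other groups (log2).

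Promoter sequence was examined because the immunity GTPases and the Ifit, Oas and Isg genes differ in the signals they are known for. RefSeq windows on build GRCm38.p6, from 250 bases before to 50 bases after a transcription start, were matched by symbol for 40 of the 53 members and for 9978 measured genes. ISRE was searched as GAAA, any pair of bases and GAAA again, or as TTTC, any pair and TTTC where it lies on the other strand, and GAS as TTCNNNGAA, which reads the same on both strands. Overlapping matches were counted, and a gene with several windows was counted once. An ISRE match lay in 9 of 10 immunity GTPase genes with a window (90%), in 4 of 8 Ifit, Oas and Isg genes (50%), in 21 of 40 members (52.5%) and in 394 of 9978 measured genes (3.95%). A GAS match lay in 6 of 10 immunity GTPase genes (60.0%), in 3 of 8 Ifit, Oas and Isg genes (37.5%), in 15 of 40 members (37.5%) and in 836 of 9978 measured genes (8.38%). A match of letters is a description of the sequence and not evidence of binding.

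The 250 bases before the start of 6 genes are shown, 3 from each family, chosen among genes called in a comparison of KO with WT cells that hold a match. Capitals mark the ISRE and GAS matches.
Tgtp2: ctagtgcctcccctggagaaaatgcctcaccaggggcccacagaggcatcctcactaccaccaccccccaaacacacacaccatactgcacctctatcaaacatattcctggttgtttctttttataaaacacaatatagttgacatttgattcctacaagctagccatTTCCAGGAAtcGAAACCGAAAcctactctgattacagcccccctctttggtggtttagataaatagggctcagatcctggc
Irgm1: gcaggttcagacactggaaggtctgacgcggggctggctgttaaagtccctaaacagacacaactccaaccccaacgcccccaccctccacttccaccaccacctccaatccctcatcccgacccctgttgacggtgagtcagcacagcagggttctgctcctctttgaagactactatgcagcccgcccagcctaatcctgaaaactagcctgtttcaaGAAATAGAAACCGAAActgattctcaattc
Gbp2: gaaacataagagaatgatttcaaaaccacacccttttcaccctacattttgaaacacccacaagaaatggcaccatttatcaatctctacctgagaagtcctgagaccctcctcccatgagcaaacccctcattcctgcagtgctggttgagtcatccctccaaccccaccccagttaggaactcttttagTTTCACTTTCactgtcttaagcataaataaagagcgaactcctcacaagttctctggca
Oas1a: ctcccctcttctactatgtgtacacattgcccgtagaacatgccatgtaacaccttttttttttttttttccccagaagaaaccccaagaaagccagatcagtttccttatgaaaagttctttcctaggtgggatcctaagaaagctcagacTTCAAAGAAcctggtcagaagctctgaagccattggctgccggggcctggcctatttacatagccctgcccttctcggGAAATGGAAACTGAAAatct
Isg15: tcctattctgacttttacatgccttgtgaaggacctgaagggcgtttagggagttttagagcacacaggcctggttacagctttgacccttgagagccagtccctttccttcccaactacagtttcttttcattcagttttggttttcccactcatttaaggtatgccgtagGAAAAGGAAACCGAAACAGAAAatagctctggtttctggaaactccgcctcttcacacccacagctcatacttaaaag
Ifit3: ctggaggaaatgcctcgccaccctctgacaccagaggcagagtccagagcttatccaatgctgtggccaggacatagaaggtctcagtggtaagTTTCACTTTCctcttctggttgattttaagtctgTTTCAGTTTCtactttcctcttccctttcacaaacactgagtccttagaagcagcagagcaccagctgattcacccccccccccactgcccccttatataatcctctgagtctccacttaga
Tgtp2 (chr11:49064213-49064462 on the minus strand) has a GAS match that begins 81 bases before the start, followed by an ISRE match that begins 70 bases before it. Irgm1 (chr11:48871421-48871670 on the minus strand) has a pair of overlapping ISRE matches that begin 30 and 24 bases before the start. Gbp2 (chr3:142620413-142620662 on the plus strand) has 1 ISRE match, in the other orientation, 59 bases before the start. Oas1a (chr5:120907526-120907775 on the minus strand) has overlapping ISRE matches that begin 20 and 14 bases before the start and a GAS match that begins 98 bases before it. Isg15 (chr4:156200819-156201068 on the minus strand) has 3 overlapping ISRE matches, the first of which begins 78 bases before the start. Ifit3 (chr19:34583279-34583528 on the plus strand) has ISRE matches that begin 156 and 122 bases before the start.

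**Figure D1:**
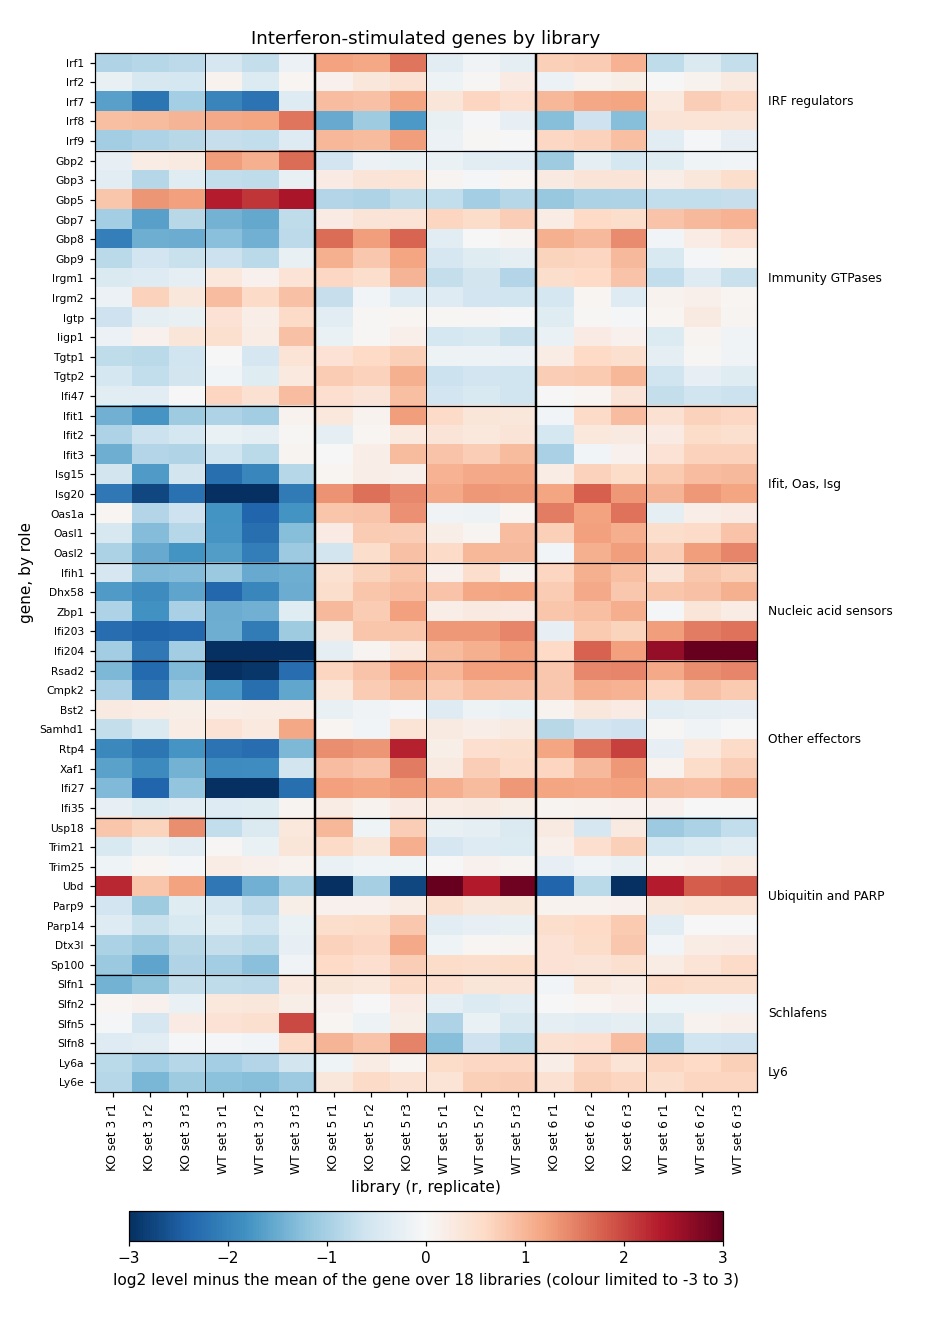
Each row is 1 of the 53 measured interferon-stimulated genes, grouped by role, and each column is 1 of the 18 libraries, with KO libraries left of WT libraries in each set. Colour is the log2 level minus the gene's mean over the 18 libraries, limited to -3 to 3. Most Ifit, Oas, Isg and sensor genes are low in set 3 and high in sets 5 and 6 in both genotypes, while Gbp5 is high in set 3.

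After the shift to a common median, interferon-stimulated genes were called in both directions in KO cells of set 3. On that scale they were more often higher than lower in KO cells of sets 5 and 6. In set 3, 6 of 53 members were higher and 9 lower in KO than in WT cells by limma's moderated test (Benjamini-Hochberg adjusted p under 0.05 over all genes, used for every call below), beside 7.29% of all genes higher and 3.28% lower. In set 5, 18 were higher and 6 lower, beside 24.9% and 24.7% of all genes. In set 6, 17 were higher and 8 lower, beside 18.8% and 18.5% of all genes. Without WT replicate 1 of set 3 only 3 were higher there, and 5 were lower in set 6 without KO replicate 1 or WT replicate 3. The set 3 counts also moved with the fit, to 1 higher and 5 lower with only the compared groups in it, 4 lower with a minimum fold of 1.2 and 16 lower with replicate number as a block. With only the compared groups in the fit, Oas1a, Ifi204, Ifi27, Rsad2, Usp18, Samhd1 and Slfn2 lost their set 3 calls (adjusted p of 0.0541 to 0.185). On the deposited scale the counts were 6 higher and 12 lower in set 3, beside 6.92% and 4.46% of all genes. There, set 5 had 28 higher and 2 lower, beside 50.1% and 8.08% of all genes, and set 6 had 27 higher and 4 lower, beside 53.9% and 4.59%. The counts of higher members in sets 5 and 6 were thus close to the shares over all genes on that scale. The median KO minus WT difference of the members was -0.28 in set 3, 0.14 in set 5 and 0.06 in set 6 (log2), against -0.04, 0.00 and 0.00 for all genes. In a bulk sample, fewer cells of a type and less RNA per cell cannot be told apart.

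The KO minus WT difference of sets 6 and 5 was compared directly, and no gene of the 12547 and so 0 of 53 members were called by limma, although 1246 genes and 4 members had an unadjusted p under 0.05. The contrast of set 5 with set 3 called 21 members higher and 7 lower, beside 18.7% and 18.5% of all genes. The contrast of set 6 with set 3 called 17 higher and 5 lower, beside 12.7% and 11.4% of all genes. The 5 lower in the contrast of set 6 with set 3 became 3 when any 1 of 8 libraries was left out. These were KO libraries 1 and 3 and WT libraries 1 and 2 of set 3, and KO library 1 and all WT libraries of set 6. As deposited, these counts were 31 and 3 for set 5 against set 3, beside 43.2% and 6.82% of all genes. For set 6 against set 3 they were 26 and 3, beside 46.2% and 4.11%, so the 26 higher were close to the share over all genes.

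**Figure D2:**
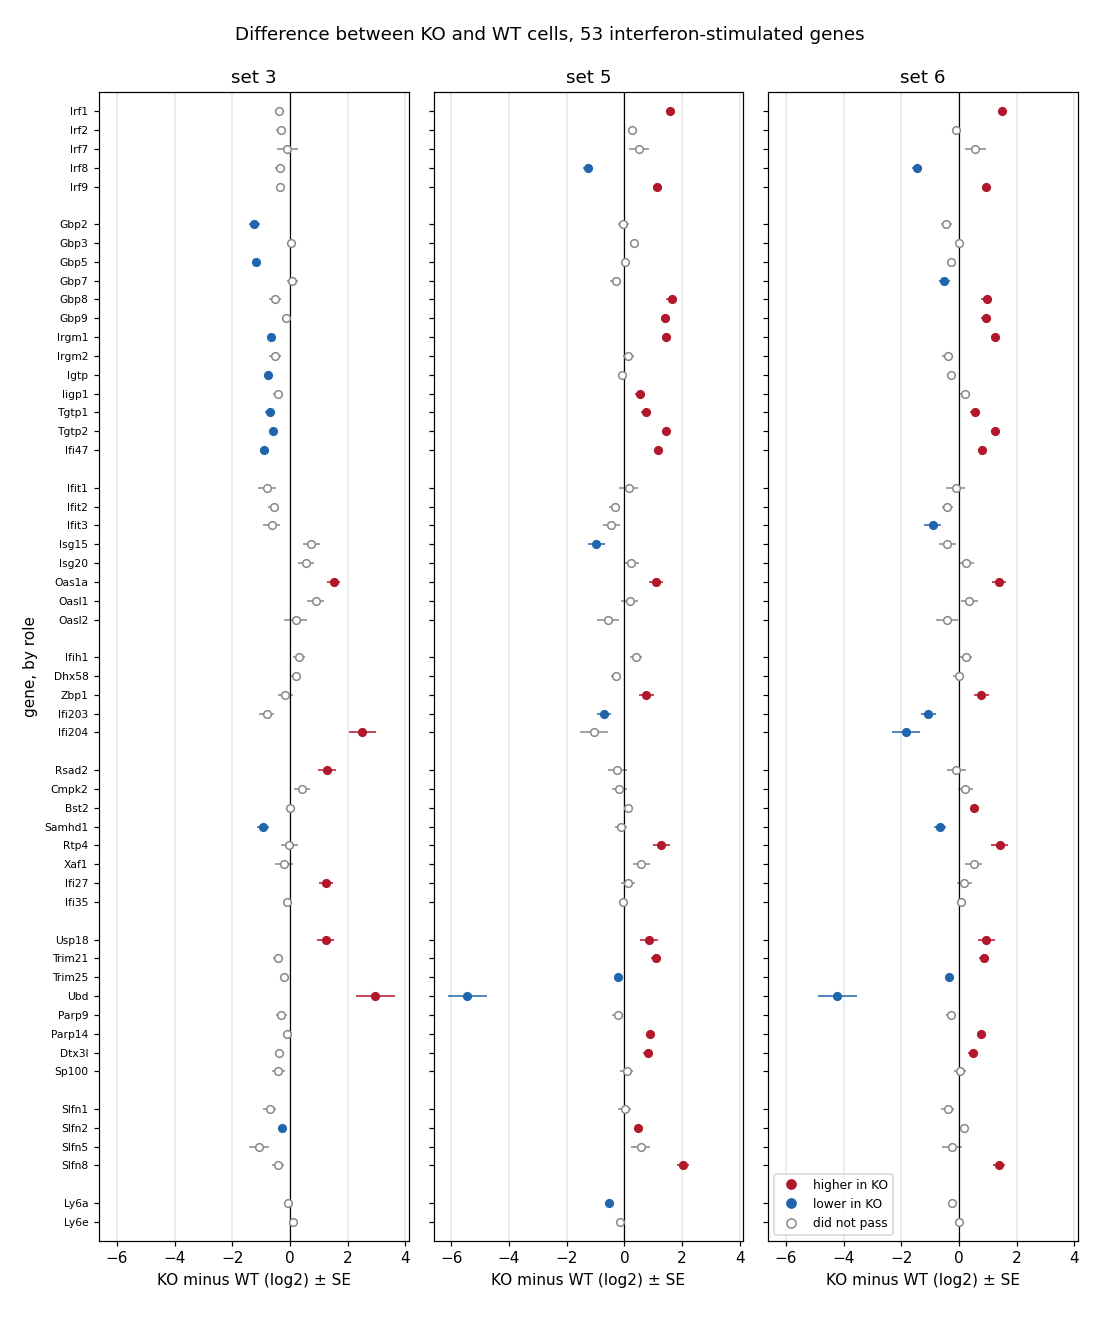
Points show the KO minus WT difference (log2, horizontal) of each member in sets 3, 5 and 6, with bars for the standard error of the limma fit. Filled points passed the test, and open points did not. Gbp2 and Gbp5 are lower in KO cells of set 3, Irgm1 and Tgtp2 are higher in KO cells of sets 5 and 6, and Ubd is at 2.96 in set 3, -5.45 in set 5 and -4.22 in set 6.

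Immunity GTPases that were called were lower in KO cells of set 3 and, with 1 exception, Gbp7 in set 6, higher in KO cells of sets 5 and 6. In set 3, 7 of 13 were lower in KO cells and 0 higher, beside 3.28% and 7.29% of all genes, and 10 had an unadjusted p under 0.05 in either direction. The median difference of the 13 was -0.57 (log2). In set 5, 7 were higher and 0 lower, beside 24.9% and 24.7% of all genes, 8 had an unadjusted p under 0.05, and the median was 0.54. In set 6, 6 were higher and 1 lower, beside 18.8% and 18.5%, with a median of 0.21. As deposited, 10 were higher and 0 lower in set 5, beside 50.1% and 8.08% of all genes. In set 6, 8 were higher and 0 lower as deposited, beside 53.9% and 4.59%, so that count is close to the share over all genes. Leaving out any 1 library of a set gave 6 to 8 lower in set 3, 6 to 7 higher in set 5 and 5 to 6 higher in set 6.

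Guanylate-binding proteins of the set 3 decrease were Gbp2 and Gbp5, which coat microbial vacuoles and, for Gbp5, promote inflammasome assembly. Gbp2 was at 13.06, 13.52 and 13.57 in KO cells, against 14.54, 14.35 and 14.96 in WT cells of set 3. Every KO library was below every WT library, and the difference was -1.24 ± 0.19, adjusted p = 0.000609, a fold of 0.425. Gbp5 was at 11.35, 11.86 and 11.76 in KO cells, against 12.87, 12.66 and 12.96 in WT cells (-1.18 ± 0.12, adjusted p = 1.72e-05). In sets 5 and 6 neither gene was called: Gbp2 differed by -0.04 ± 0.19, adjusted p = 0.882 in set 5 and by -0.44 ± 0.19, adjusted p = 0.0775 in set 6, and Gbp5 by 0.01 ± 0.12, adjusted p = 0.954 and by -0.29 ± 0.12, adjusted p = 0.0688. As deposited, Gbp5 was called higher in KO cells of set 5 (0.40).

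Of the 7 Irg family members measured, 5 were lower in KO cells of set 3, and Irgm2 (-0.51 ± 0.20, adjusted p = 0.119) and Iigp1 (-0.42 ± 0.18, adjusted p = 0.146) did not pass there. Ifi47 was at 13.45, 13.43 and 13.74 in KO cells, against 14.41, 14.22 and 14.69 in WT cells of set 3 (-0.90 ± 0.14, adjusted p = 0.00055). The other Irg genes called lower in KO cells there were Igtp (-0.77 ± 0.13, adjusted p = 0.00145), Tgtp1 (-0.69 ± 0.16, adjusted p = 0.0116), Irgm1 (-0.64 ± 0.13, adjusted p = 0.00477) and Tgtp2 (-0.57 ± 0.14, adjusted p = 0.015). KO and WT libraries did not overlap for any of these 5 genes. Here and elsewhere, non-overlap is described for genes called on the same libraries, so it is not further evidence of a call. The share of all genes without overlap was not counted. Igtp protects vacuole membranes from other GTPases of the family, as Irgm1 does, and Tgtp1 and Tgtp2 are near-identical neighbours that load onto parasite vacuoles. Reads of Tgtp1 and Tgtp2 may have been split between them in the authors' counting, so the value of each is uncertain.

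In sets 5 and 6, 4 of those 7 genes were higher in KO cells. Irgm1 was at 13.26, 13.16 and 13.65 in KO cells, against 11.93, 12.08 and 11.75 in WT cells of set 5 (1.43 ± 0.13, adjusted p = 8.02e-07, a fold of 2.7). In set 6 it was at 13.16, 13.24 and 13.50 in KO cells, against 11.90, 12.25 and 11.96 in WT cells (1.26 ± 0.13, adjusted p = 5.56e-06). The lowest KO library was above the highest WT library in both sets, whereas in set 3 Irgm1 had been at 12.20, 12.26 and 12.37 in KO cells and 12.95, 12.76 and 13.04 in WT cells. Tgtp2 was at 12.61, 12.55 and 12.92 in KO cells, against 11.22, 11.28 and 11.26 in WT cells of set 5 (1.44 ± 0.14, adjusted p = 1.33e-06), and at 12.59, 12.65 and 12.85 in KO cells, against 11.26, 11.63 and 11.50 in WT cells of set 6 (1.24 ± 0.14, adjusted p = 1.06e-05). Tgtp2 libraries of the genotypes did not overlap in either set. Ifi47 was at 14.27, 14.16 and 14.66 in KO cells, against 13.19, 13.29 and 13.16 in WT cells of set 5 (1.15 ± 0.14, adjusted p = 7.59e-06) and at 13.76, 13.82 and 14.14 in KO cells, against 13.04, 13.15 and 13.11 in WT cells of set 6 (0.81 ± 0.14, adjusted p = 0.000312). Tgtp1 differed by 0.74 ± 0.16, adjusted p = 0.00136 in set 5 and 0.55 ± 0.16, adjusted p = 0.0141 in set 6.

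Gbp8 and Gbp9, less studied members of the guanylate-binding family, rose in KO cells of sets 5 and 6 without a called fall in set 3. Gbp9 was at 11.55, 11.30 and 11.66 in KO cells, against 9.98, 10.12 and 10.18 in WT cells of set 5 (1.41 ± 0.16, adjusted p = 4.15e-06). Gbp8 was at 12.92, 12.49 and 13.00 in KO cells, against 10.93, 11.26 and 11.32 in WT cells of set 5 (1.63 ± 0.20, adjusted p = 1.08e-05, a fold of 3.11). In set 6 the differences were 0.92 ± 0.16, adjusted p = 0.000318 for Gbp9 and 0.96 ± 0.20, adjusted p = 0.00164 for Gbp8. Iigp1, which disrupts the vacuole of Toxoplasma, passed in set 5 (0.54 ± 0.18, adjusted p = 0.0183) and not in set 6 (0.21 ± 0.18, adjusted p = 0.381). Igtp, Irgm2 and Gbp3 did not pass in either set, with differences of -0.10, 0.14 and 0.33 in set 5 and -0.27, -0.39 and -0.01 in set 6. Gbp7 was at 10.99, 11.37 and 11.30 in KO cells, against 11.62, 11.75 and 11.80 in WT cells of set 6 (-0.50 ± 0.19, adjusted p = 0.0487). That call was lost without any 1 of the 6 libraries (adjusted p of 0.05 to 0.177) and on the deposited scale (-0.09).

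Tests of the change in the KO minus WT difference between sets called 10 of 13 immunity GTPases higher in set 5 than in set 3, and 8 of 13 higher in set 6 than in set 3, with 0 lower in either contrast and 11 at an unadjusted p under 0.05 in both. Of all genes, 18.7% were higher in the set 5 contrast and 12.7% in that of set 6. As deposited these counts were 12 and 10 of 13, beside 43.2% and 46.2% of all genes. For Irgm1 the difference of set 5 exceeded that of set 3 by 2.08 ± 0.19, adjusted p = 6.76e-06. For Ifi47 the excess was 2.05 ± 0.19, adjusted p = 8.57e-06 and for Tgtp2 2.01 ± 0.20, adjusted p = 1.21e-05. Set 6 exceeded set 3 by 1.91 ± 0.19, adjusted p = 1.89e-05 for Irgm1, by 1.81 ± 0.20, adjusted p = 4.43e-05 for Tgtp2 and by 1.71 ± 0.19, adjusted p = 5.8e-05 for Ifi47. Gbp2 and Gbp5 also passed, with 1.2 ± 0.27 and 1.19 ± 0.17 for set 5 against set 3.

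Changes between sets were also read within each genotype. In KO cells, 8 of 13 immunity GTPases rose and 2 fell in set 5 against set 3, beside 35.6% of all genes higher and 35.7% lower. In WT cells, 3 rose and 8 fell, beside 30.5% and 36.8% of all genes. As deposited the KO counts were 9 and 1, beside 49.8% and 23.4%. Irgm1 in KO cells was at 13.26, 13.16 and 13.65 in set 5 and 12.20, 12.26 and 12.37 in set 3 (1.08 ± 0.13, adjusted p = 1.69e-06), and in WT cells at 11.93, 12.08 and 11.75 in set 5 and 12.95, 12.76 and 13.04 in set 3 (-1.0 ± 0.13, adjusted p = 4.88e-06). Ifi47 rose in KO cells (0.82 ± 0.14, adjusted p = 4.62e-05) and fell in WT cells (-1.22 ± 0.14, adjusted p = 7.93e-07), and Tgtp2 did likewise (1.45 ± 0.14, adjusted p = 1.11e-07 in KO cells and -0.56 ± 0.14, adjusted p = 0.00209 in WT cells). These contrasts share the libraries of the KO and WT comparisons above and are not further evidence of them.

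Gbp5 had the deepest fall of the 13 genes in both genotypes. In KO cells it was at 9.64, 9.61 and 9.75 in set 5 and 11.35, 11.86 and 11.76 in set 3 (-1.99 ± 0.12, adjusted p = 4.88e-10), and in WT cells at 9.78, 9.51 and 9.68 in set 5 and 12.87, 12.66 and 12.96 in set 3 (-3.17 ± 0.12, adjusted p = 2.06e-11). Gbp2 did not pass in KO cells (-0.41 ± 0.19, adjusted p = 0.0634) and fell in WT cells (-1.61 ± 0.19, adjusted p = 1.5e-06). Irgm2, a regulator of other Irg proteins, was at 8.57, 9.17 and 8.87 in set 5 and 9.08, 9.94 and 9.59 in set 3 in KO cells (-0.67 ± 0.20, adjusted p = 0.0066) and fell in WT cells as well (-1.32 ± 0.20, adjusted p = 2.11e-05), and the KO call was lost on the deposited scale (-0.29). Gbp8 rose in both, and more in KO cells (12.92, 12.49 and 13.00 in set 5 and 9.20, 9.78 and 9.75 in set 3, 3.23 ± 0.20, adjusted p = 8.72e-10) than in WT cells (10.93, 11.26 and 11.32 in set 5 and 9.98, 9.81 and 10.46 in set 3, 1.09 ± 0.20, adjusted p = 0.000172), with a test of that difference of 2.14 ± 0.29, adjusted p = 8.5e-05. Gbp7 and Gbp3 rose in both. Gbp7 changed by 1.51 ± 0.19 in KO cells and by 1.88 ± 0.19, adjusted p = 2.9e-07 in WT cells. Gbp3 changed by 0.87 ± 0.15 in KO cells and was at 10.64, 10.49 and 10.62 in set 5 and 9.82, 9.78 and 10.34 in set 3 in WT cells (0.60 ± 0.15, adjusted p = 0.00183). Gbp9 rose in KO cells (1.70 ± 0.16, adjusted p = 6.09e-08) and did not pass in WT cells (0.16 ± 0.16, adjusted p = 0.369).

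**Figure D3:**
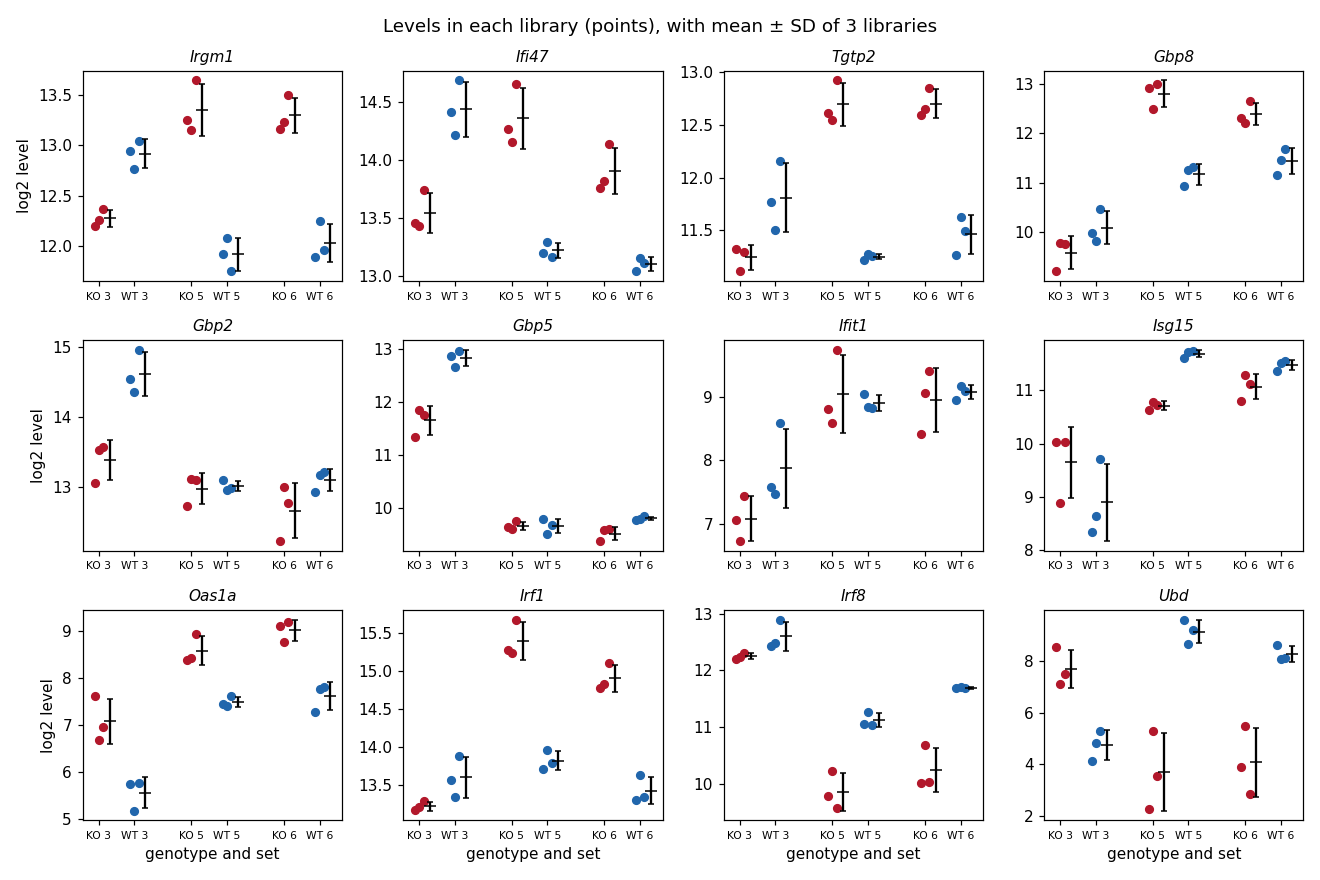
Log2 levels of 12 members in every library, with KO points left of WT points in sets 3, 5 and 6, and a tick and bar for the mean ± SD of 3 libraries. Irgm1, Ifi47 and Tgtp2 are lower in KO than in WT libraries of set 3 and higher in sets 5 and 6, Ifit1 libraries of the genotypes overlap in sets 5 and 6, and Ubd changes sides between set 3 and the later-numbered sets.

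Of the 8 Ifit, Oas and Isg genes, set 3 had 1 higher and 0 lower in KO cells, beside 7.29% and 3.28% of all genes. Set 5 had 1 higher and 1 lower, beside 24.9% and 24.7%, and set 6 had 1 higher and 1 lower, beside 18.8% and 18.5%. As deposited, 1 was higher and 0 lower in set 5, beside 50.1% and 8.08% of all genes. In set 6, 3 were higher and 0 lower as deposited, beside 53.9% and 4.59%. Their median differences were 0.38, -0.09 and -0.26, beside -0.57, 0.54 and 0.21 for the 13 immunity GTPases. Their standard errors were larger, with a median of 0.29 against 0.16 for the GTPases. In set 3, 6 of the 8 had an unadjusted p under 0.05. WT replicate 3 of set 3 was the highest WT library of that set for all 8 genes. Without it 4 of the 8 were called higher in KO cells of set 3, and 3 without KO replicate 2.

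Oas1a, a synthetase whose oligoadenylate product activates RNase L, was the member of this group that was higher in KO cells of every set. It was at 7.61, 6.68 and 6.94 in KO cells, against 5.75, 5.18 and 5.76 in WT cells of set 3 (1.51 ± 0.24, adjusted p = 0.00081). In set 5 it was at 8.38, 8.41 and 8.93 in KO cells, against 7.44, 7.41 and 7.62 in WT cells (1.08 ± 0.24, adjusted p = 0.00154), and in set 6 at 9.10, 8.76 and 9.18 in KO cells, against 7.28, 7.75 and 7.80 in WT cells (1.40 ± 0.24, adjusted p = 0.000367). KO and WT libraries did not overlap in any set. Its reads may be shared with the closely related Oas1g, so the value is uncertain. Oasl1 and Oasl2, relatives of the synthetases, did not pass in any set, with differences of 0.89 ± 0.29, 0.19 ± 0.29 and 0.36 ± 0.29 for Oasl1 and 0.20 ± 0.39, -0.56 ± 0.39 and -0.41 ± 0.39 for Oasl2 in sets 3, 5 and 6.

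Isg15, a ubiquitin-like modifier that is conjugated to proteins after interferon, was at 10.63, 10.79 and 10.72 in KO cells, against 11.62, 11.71 and 11.75 in WT cells of set 5 (-0.98 ± 0.30, adjusted p = 0.0132). The 3 KO libraries were below the 3 WT libraries. On the deposited scale the call was lost (-0.59). In set 3 Isg15 was at 10.03, 8.88 and 10.03 in KO cells, against 8.33, 8.64 and 9.72 in WT cells, with overlapping libraries (0.75 ± 0.30, adjusted p = 0.131). The difference of set 5 was below that of set 3 by a test of the change (-1.73 ± 0.43, adjusted p = 0.00509). Isg20, an RNA exonuclease, did not pass in any set, and its differences were 0.56 ± 0.26, 0.24 ± 0.26 and 0.25 ± 0.26.

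Ifit1, Ifit2 and Ifit3 bind viral RNA or associate with proteins that do. Ifit3 was at 7.15, 8.05 and 8.26 in KO cells, against 8.56, 8.81 and 8.81 in WT cells of set 6 (-0.91 ± 0.29, adjusted p = 0.023). KO libraries were all below WT libraries, but the call was lost without KO replicate 1 or WT replicates 2 or 3 (adjusted p of 0.0616 to 0.131) and on the deposited scale (-0.50). Reads of Ifit3 and its near copy Ifit3b may have been shared. Ifit1 was at 8.82, 8.59 and 9.75 in KO cells, against 9.06, 8.85 and 8.82 in WT cells of set 5 (0.14 ± 0.32, adjusted p = 0.741), and the genotypes overlapped. The interval of that difference was -0.54 to 0.83 and so allows a change of either sign. In set 3 the 3 Ifit genes were lower in KO cells without passing, with differences of -0.80 ± 0.32, -0.57 ± 0.19 and -0.63 ± 0.29 for Ifit1, Ifit2 and Ifit3.

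The Ifit, Oas and Isg genes rose in set 5 against set 3 in both genotypes, whereas 8 of 13 immunity GTPases fell in WT cells. All 8 rose, beside 35.6% of all genes in KO cells and 30.5% in WT cells, by a median of 1.48 in KO cells and 2.05 in WT cells, beside medians of 0.87 in KO cells and -0.56 in WT cells for the 13 GTPases and 0.00 in KO cells and -0.08 in WT cells for all genes. Isg20 in KO cells was at 12.14, 12.46 and 12.24 in set 5 and 8.65, 8.07 and 8.56 in set 3 (3.86 ± 0.26, adjusted p = 2.27e-09), and in WT cells at 11.94, 12.11 and 12.07 in set 5 and 7.22, 7.69 and 8.68 in set 3 (4.17 ± 0.26, adjusted p = 1.56e-09). Isg15 rose by 1.07 ± 0.30, adjusted p = 0.00455 in KO cells and by 2.80 ± 0.30, adjusted p = 5.28e-07 in WT cells. Ifit1 in KO cells was at 8.82, 8.59 and 9.75 in set 5 and 7.06, 6.73 and 7.44 in set 3 (1.98 ± 0.32, adjusted p = 4.2e-05). Oas1a rose by 1.49 ± 0.24, adjusted p = 3.6e-05 in KO cells and 1.93 ± 0.24, adjusted p = 2.92e-06 in WT cells. Only Isg15 of the 8 was called in the test of the set 5 against set 3 change between genotypes, and none in that of set 6 against set 3, where 1 had an unadjusted p under 0.05.

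**Figure D4:**
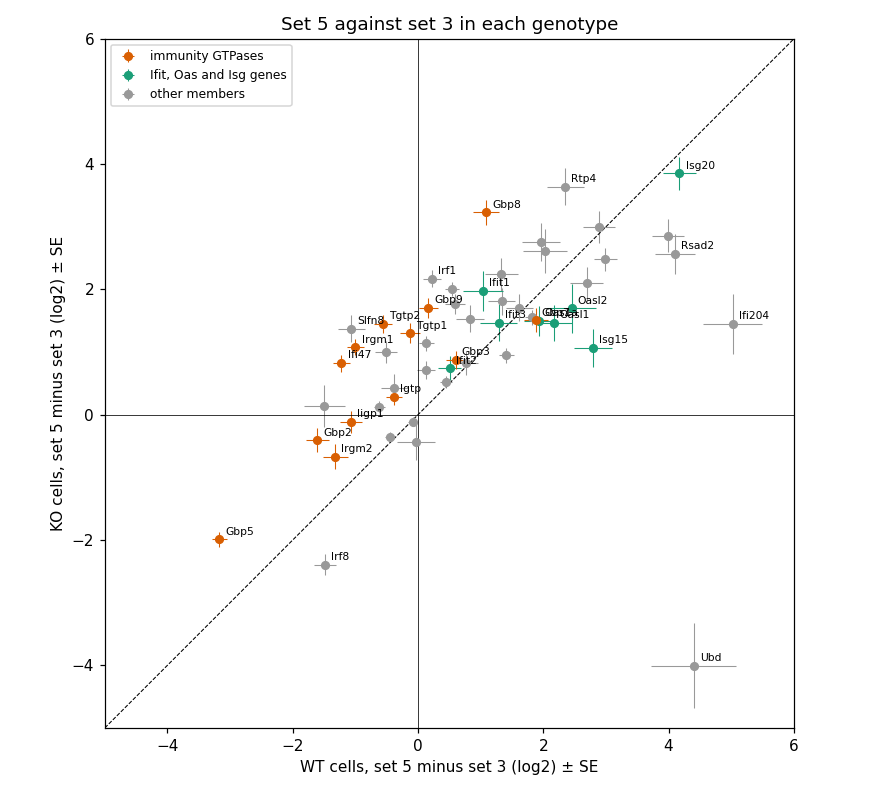
Each point is a member, with its change in set 5 against set 3 in KO cells (vertical) and in WT cells (horizontal), log2 with standard errors. The dashed line marks equal change. Immunity GTPases such as Gbp8, Tgtp2, Irgm1 and Ifi47 lie above the line, the Ifit, Oas and Isg genes lie in the upper right, and Ubd lies far below the line, with a change of -4.01 in KO cells and 4.40 in WT cells.

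Interferon regulatory factors followed the GTPases in part. Irf1, the transcription factor that drives many interferon gamma targets, was at 15.28, 15.23 and 15.68 in KO cells, against 13.71, 13.97 and 13.79 in WT cells of set 5 (1.57 ± 0.14, adjusted p = 6.44e-07, a fold of 2.97). In set 6 it was at 14.78, 14.83 and 15.11 in KO cells, against 13.30, 13.64 and 13.35 in WT cells (1.48 ± 0.14, adjusted p = 2.54e-06). The lowest KO library was above the highest WT library in both. In set 3 Irf1 did not pass (-0.38 ± 0.14, adjusted p = 0.0999), and the difference of set 5 exceeded that of set 3 by 1.95 ± 0.20, adjusted p = 1.31e-05.

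Irf9, the DNA-binding subunit of the type I interferon complex, was at 11.97, 11.90 and 12.21 in KO cells, against 10.77, 11.00 and 10.94 in WT cells of set 5 (1.12 ± 0.11, adjusted p = 2.16e-06), and at 11.58, 11.65 and 11.87 in KO cells, against 10.63, 10.90 and 10.72 in WT cells of set 6 (0.95 ± 0.11, adjusted p = 2.04e-05). The genotypes did not overlap. Irf8, a factor of myeloid and B cells that is also made by activated T cells, moved the other way. It was at 9.78, 10.22 and 9.57 in KO cells, against 11.06, 11.26 and 11.04 in WT cells of set 5 (-1.26 ± 0.17, adjusted p = 2.81e-05), and at 10.02, 10.68 and 10.03 in KO cells, against 11.69, 11.71 and 11.68 in WT cells of set 6 (-1.45 ± 0.17, adjusted p = 1.83e-05), again without overlap. Irf8 fell in set 5 against set 3 in KO cells (-2.39 ± 0.17, adjusted p = 4.38e-09) and in WT cells (-1.48 ± 0.17, adjusted p = 1.43e-06). Irf1 rose in KO cells over the same sets (2.17 ± 0.14, adjusted p = 1.2e-09) and was not called in WT cells (0.22 ± 0.14, adjusted p = 0.172), and Irf9 rose in both (2.0 ± 0.11, adjusted p = 3.57e-10 in KO cells, and 0.55 ± 0.11, adjusted p = 0.00052 in WT cells).

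Irf7, which amplifies type I interferon production, did not pass in any set and was 0.50 ± 0.35 in set 5. It rose in set 5 against set 3 in both genotypes, in KO cells to 10.50, 10.45 and 10.78 in set 5 against 7.95, 7.39 and 8.55 in set 3 (2.61 ± 0.35, adjusted p = 5.67e-06), and in WT cells to 9.94, 10.22 and 10.08 against 7.59, 7.36 and 9.20 (2.03 ± 0.35, adjusted p = 9.4e-05). Irf2, an antagonist of Irf1, was at 10.80, 11.01 and 11.13 in KO cells and 10.53, 10.72 and 10.92 in WT cells of set 5 and did not pass (0.26 ± 0.15, adjusted p = 0.155). Its test of set 5 against set 3 passed (0.58 ± 0.21, adjusted p = 0.0366), and that call was lost without any of 8 of the 12 libraries (adjusted p of 0.0598 to 0.0976).

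Sensors of foreign nucleic acid were split. Zbp1, which binds Z-form nucleic acid and can trigger cell death, was at 13.29, 13.09 and 13.55 in KO cells, against 12.51, 12.58 and 12.57 in WT cells of set 5 (0.75 ± 0.26, adjusted p = 0.0237) and differed by 0.77 ± 0.26, adjusted p = 0.0284 in set 6. These calls were lost without KO replicates 1 or 3 or WT replicates 1 or 3 (adjusted p of 0.0502 to 0.0936) in set 5, and without KO replicates 2 or 3 or WT replicates 1 or 3 (adjusted p of 0.0538 to 0.109) in set 6. Ifi203 and Ifi204 are DNA-binding proteins of the PYHIN family. Ifi203 was at 10.17, 11.21 and 11.09 in KO cells, against 11.68, 11.96 and 12.04 in WT cells of set 6 (-1.07 ± 0.26, adjusted p = 0.00387) and differed by -0.71 ± 0.26, adjusted p = 0.0304 in set 5, where the call was lost without KO replicate 1 or WT replicates 1, 2 or 3 (adjusted p of 0.0544 to 0.143) and on the deposited scale (-0.32).

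Ifi204 was higher in KO cells of set 3, at 6.62, 5.50 and 6.61 in KO cells, against 2.26, 4.39 and 4.52 in WT cells (2.52 ± 0.48, adjusted p = 0.0029). In set 6 it was lower, at 8.24, 9.43 and 8.89 in KO cells, against 10.30, 10.77 and 11.00 in WT cells (-1.83 ± 0.48, adjusted p = 0.00676). The libraries did not overlap in either set, and the change between these sets was -4.35 ± 0.67, adjusted p = 0.000524. In set 5 the difference was -1.06 ± 0.48, adjusted p = 0.0773. In WT cells Ifi204 rose in set 5 against set 3 (8.62, 8.72 and 8.90 in set 5 and 2.26, 4.39 and 4.52 in set 3, 5.02 ± 0.48, adjusted p = 1.3e-07) and again in set 6 against set 5 (1.95 ± 0.48, adjusted p = 0.0471). The last call was lost without any 1 of the 6 libraries (adjusted p of 0.0613 to 0.186) and when replicate number entered as a block within WT cells (adjusted p = 0.0596). Reads within this gene cluster can be hard to assign, so both values are uncertain.

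Ifih1 and Dhx58, helicases that detect viral double-stranded RNA, did not pass between genotypes in any set. Ifih1 differed by 0.31 ± 0.21, 0.40 ± 0.21 and 0.23 ± 0.21 in sets 3, 5 and 6, and Dhx58 by 0.21 ± 0.18, -0.30 ± 0.18 and -0.02 ± 0.18. All 5 sensors rose in set 5 against set 3 in both genotypes, beside 35.6% of all genes in KO cells and 30.5% in WT cells. Dhx58 in KO cells was at 9.16, 9.46 and 9.55 in set 5 and 6.93, 6.75 and 7.04 in set 3 (2.48 ± 0.18, adjusted p = 5.5e-09) and in WT cells at 9.48, 9.78 and 9.80 in set 5 and 6.27, 6.67 and 7.14 in set 3 (2.99 ± 0.18, adjusted p = 1.27e-09). Ifi203 rose by 2.99 ± 0.26, adjusted p = 2.81e-08 in KO cells and by 2.89 ± 0.26, adjusted p = 5.78e-08 in WT cells, and Zbp1 by 2.24 ± 0.26, adjusted p = 9.14e-07 in KO cells and 1.33 ± 0.26, adjusted p = 0.000257 in WT cells.

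Other effectors also differed by set. Rsad2 (viperin), which makes an antiviral nucleotide, was at 5.27, 4.29 and 5.30 in KO cells, against 2.95, 3.70 and 4.34 in WT cells of set 3 (1.29 ± 0.33, adjusted p = 0.0175). The highest WT library was above the lowest KO library, and the call was lost without KO replicates 1 or 3 or WT replicate 1 (adjusted p of 0.0776 to 0.0929). Ifi27, a small membrane protein strongly induced by type I interferon, was at 11.06, 10.01 and 11.21 in KO cells, against 9.09, 9.30 and 10.13 in WT cells of set 3 (1.26 ± 0.26, adjusted p = 0.00472), with the lowest KO library below the highest WT library. Neither gene passed in sets 5 and 6, where Rsad2 differed by -0.25 and -0.09 and Ifi27 by 0.12 and 0.19.

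Samhd1, which hydrolyses deoxynucleotides and so limits retroviruses, was at 12.94, 13.23 and 13.88 in KO cells, against 14.08, 13.95 and 14.82 in WT cells of set 3 (-0.94 ± 0.22, adjusted p = 0.0102). It was at 12.82, 13.08 and 13.04 in KO cells, against 13.69, 13.56 and 13.66 in WT cells of set 6 (-0.66 ± 0.22, adjusted p = 0.0252). KO and WT libraries did not overlap in either set. The calls were lost without KO replicate 1 (adjusted p = 0.0696) in set 3, without KO replicates 1 or 3 or WT replicates 1 or 3 (adjusted p of 0.0515 to 0.0871) in set 6, and on the deposited scale in set 6 (-0.24). In KO cells Samhd1 was lower in set 6 than in set 5 (-0.80 ± 0.22, adjusted p = 0.0347), a call lost when replicate number entered as a block within KO cells (adjusted p = 0.0535) and without KO set 5 replicates 1 or 3 or KO set 6 replicates 1, 2 or 3 (adjusted p of 0.0584 to 0.157).

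Rtp4, an interferon-induced protein that restricts flaviviruses, was at 11.33, 11.25 and 12.25 in KO cells, against 10.12, 10.44 and 10.45 in WT cells of set 5 (1.27 ± 0.30, adjusted p = 0.00227), and at 11.11, 11.55 and 11.99 in KO cells, against 9.68, 10.23 and 10.50 in WT cells of set 6 (1.41 ± 0.30, adjusted p = 0.00162). The KO libraries lay above the WT libraries. Bst2 (tetherin), which holds budding virus at the membrane, was at 12.69, 12.93 and 12.83 in KO cells, against 12.24, 12.30 and 12.34 in WT cells of set 6 (0.52 ± 0.07, adjusted p = 5.2e-05) and did not pass in set 5 (0.11 ± 0.07, adjusted p = 0.195) or set 3 (0.02 ± 0.07, adjusted p = 0.916). Cmpk2, Xaf1 and Ifi35 did not pass between genotypes in any set, with differences of -0.18, 0.59 and -0.03 in set 5. As deposited, Xaf1, an apoptosis factor, was called higher in KO cells of set 5 (0.98) and set 6 (0.92), and so was Ifi35 (0.36 and 0.48).

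In set 5 against set 3, 6 of these 8 effectors rose and 1 fell in each genotype, beside 35.6% and 35.7% of all genes in KO cells and 30.5% and 36.8% in WT cells. As deposited the KO counts were 7 and 0, beside 49.8% and 23.4%. Rtp4 rose by 3.64 ± 0.30, adjusted p = 1.72e-08 in KO cells and by 2.35 ± 0.30 in WT cells, and the test of that difference gave 1.29 ± 0.42, adjusted p = 0.025. Ifi27 rose in KO cells (2.86 ± 0.26, adjusted p = 4.88e-08), and in WT cells it was at 13.47, 13.33 and 13.69 in set 5 and 9.09, 9.30 and 10.13 in set 3 (3.99 ± 0.26, adjusted p = 1.83e-09). Rsad2 rose by 2.56 ± 0.33 in KO cells and 4.10 ± 0.33, adjusted p = 1.69e-08 in WT cells. Cmpk2, a mitochondrial nucleotide kinase beside Rsad2 in the genome, was at 7.91, 8.05 and 8.04 in set 5 and 5.43, 4.88 and 5.59 in set 3 in WT cells (2.70 ± 0.26, adjusted p = 1.85e-07), and Xaf1 was at 11.04, 10.99 and 11.69 in set 5 and 8.52, 8.22 and 8.72 in set 3 in KO cells (2.76 ± 0.30, adjusted p = 5.5e-07). Bst2 was the effector that fell (-0.35 ± 0.07, adjusted p = 0.000305 in KO cells, and -0.45 ± 0.07, adjusted p = 3.22e-05 in WT cells), and in KO cells the sign turned on the deposited scale (0.03). In KO cells Bst2 was higher in set 6 than in set 5 (0.36 ± 0.07, adjusted p = 0.00858).

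Genes of ubiquitin-like and ADP-ribose modification held the largest single difference. Ubd, a ubiquitin-like protein that sends its targets to the proteasome, was at 8.54, 7.11 and 7.50 in KO cells, against 4.14, 4.84 and 5.29 in WT cells of set 3 (2.96 ± 0.68, adjusted p = 0.00987, a fold of 7.77). In set 5 it was at 2.28, 5.30 and 3.55 in KO cells, against 9.60, 8.67 and 9.21 in WT cells (-5.45 ± 0.68, adjusted p = 1.15e-05), and in set 6 at 3.91, 5.49 and 2.83 in KO cells, against 8.65, 8.10 and 8.14 in WT cells (-4.22 ± 0.68, adjusted p = 0.000215). No KO library overlapped a WT library in any set, and the order of the genotypes was opposite in set 3 to that in sets 5 and 6. The set 3 call was lost without KO replicate 1 or WT replicate 1 (adjusted p of 0.0503 to 0.0637). The change of the difference from set 3 was -8.41 ± 0.96, adjusted p = 2.84e-05 for set 5 and -7.18 ± 0.96, adjusted p = 0.00019 for set 6, and each was the lowest value of its contrast among all 12547 genes. Within KO cells Ubd fell in set 5 against set 3 (-4.01 ± 0.68, adjusted p = 5.98e-05), and within WT cells it rose (4.40 ± 0.68, adjusted p = 2.71e-05).

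Usp18, which removes Isg15 from proteins and damps type I receptor signalling, was higher in KO cells of all 3 sets. It was at 10.39, 10.23 and 10.96 in KO cells, against 8.83, 9.13 and 9.89 in WT cells of set 3 (1.24 ± 0.30, adjusted p = 0.0134). Its differences were 0.85 ± 0.30, adjusted p = 0.0274 in set 5 and 0.94 ± 0.30, adjusted p = 0.0214 in set 6, and KO replicate 2 was the lowest KO library in both, at 9.43 and 9.07. The calls were lost without KO replicate 3 or WT replicate 1 (adjusted p of 0.0699 to 0.0738) in set 3 and without KO replicates 1 or 3 or WT replicates 1 or 2 (adjusted p of 0.0512 to 0.0842) in set 6. The Usp18 call of set 5 was not checked in this way. Trim21, a ubiquitin ligase that binds antibody-coated virus, was at 10.27, 10.06 and 10.78 in KO cells, against 9.20, 9.32 and 9.28 in WT cells of set 5 (1.10 ± 0.17, adjusted p = 9.05e-05) and differed by 0.87 ± 0.17, adjusted p = 0.00111 in set 6, without overlap.

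Parp14, an ADP-ribosyltransferase, was at 10.89, 10.92 and 11.17 in KO cells, against 10.03, 10.11 and 10.14 in WT cells of set 5 (0.90 ± 0.12, adjusted p = 2.12e-05) and differed by 0.76 ± 0.12, adjusted p = 0.000187 in set 6. Dtx3l, a ubiquitin ligase that pairs with Parp9, was at 12.01, 11.93 and 12.46 in KO cells, against 11.19, 11.39 and 11.41 in WT cells of set 5 (0.80 ± 0.16, adjusted p = 0.000619) and differed by 0.48 ± 0.16, adjusted p = 0.026 in set 6. KO libraries lay above WT libraries for both genes. Its partner Parp9 did not pass, at -0.30, -0.24 and -0.28 in sets 3, 5 and 6. Sp100, a nuclear body protein, did not pass either, at -0.40, 0.07 and 0.03.

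Trim25, a ubiquitin ligase of the RIG-I pathway, was at 9.80, 9.86 and 9.86 in KO cells, against 10.01, 10.12 and 10.09 in WT cells of set 5 (-0.23 ± 0.07, adjusted p = 0.015) and differed by -0.34 ± 0.07, adjusted p = 0.00201 in set 6. Its sign turned on the deposited scale, to 0.16 in set 5 and 0.08 in set 6, and the set 5 call was lost without KO replicate 1 or WT replicate 2 (adjusted p of 0.0514 to 0.0578). Sp100 and Parp9 rose in set 5 against set 3 in both genotypes. Sp100 in KO cells was at 12.85, 12.73 and 12.98 in set 5 and 11.12, 10.66 and 11.34 in set 3 (1.81 ± 0.22, adjusted p = 1.32e-06), with a change of 1.34 ± 0.22, adjusted p = 4.33e-05 in WT cells. Parp9 in WT cells was at 11.79, 11.66 and 11.67 in set 5 and 10.79, 10.54 and 11.50 in set 3 (0.76 ± 0.19, adjusted p = 0.00174). In KO cells Dtx3l rose by 1.77 ± 0.16, adjusted p = 4.98e-08 and Parp14 by 1.14 ± 0.12, adjusted p = 3.17e-07. Trim21 rose in KO cells (1.0 ± 0.17, adjusted p = 7.62e-05) and fell in WT cells (-0.51 ± 0.17, adjusted p = 0.0171), where the call was lost without WT set 3 replicate 3 or WT set 5 replicate 1 (adjusted p of 0.0508 to 0.0941). Its change between sets differed between the genotypes (1.51 ± 0.25, adjusted p = 0.000316).

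Schlafens, which in mouse T cells are tied to quiescence and translation control, included the largest rise of a member in set 5. Slfn8 was at 10.88, 10.71 and 11.34 in KO cells, against 8.57, 9.23 and 9.05 in WT cells of set 5 (2.03 ± 0.22, adjusted p = 3.22e-06, a fold of 4.08), and at 10.32, 10.37 and 10.79 in KO cells, against 8.81, 9.26 and 9.25 in WT cells of set 6 (1.39 ± 0.22, adjusted p = 0.00017). The genotypes did not overlap. Slfn8 is close to Slfn9 in sequence, and reads may be shared. In set 5 against set 3 it rose in KO cells (1.37 ± 0.22, adjusted p = 2.89e-05) and fell in WT cells (-1.07 ± 0.22, adjusted p = 0.000391). Slfn2, a schlafen whose loss makes T cells leave quiescence, was at 12.89, 12.96 and 12.63 in KO cells, against 13.16, 13.16 and 13.00 in WT cells of set 3 (-0.28 ± 0.08, adjusted p = 0.0423) and at 12.97, 12.83 and 13.07 in KO cells, against 12.58, 12.42 and 12.49 in WT cells of set 5 (0.46 ± 0.08, adjusted p = 0.000299). The set 3 call was lost without KO replicates 1 or 3 or WT replicates 1 or 2 (adjusted p of 0.073 to 0.189). Slfn5 was at 7.23, 6.77 and 7.54 in KO cells, against 7.71, 7.77 and 9.26 in WT cells of set 3 and did not pass (-1.07 ± 0.33, adjusted p = 0.051), with WT replicate 3 above the other WT libraries, and it passed the test of set 5 against set 3 (1.63 ± 0.47, adjusted p = 0.013). Slfn2 and Slfn5 fell in WT cells of set 5 against set 3 (-0.61 ± 0.08, adjusted p = 7.21e-06 for Slfn2, and -1.50 ± 0.33, adjusted p = 0.000844 for Slfn5). Slfn1 did not pass between genotypes and rose in set 5 against set 3 in KO cells (12.36, 12.32 and 12.58 in set 5 and 10.59, 10.79 and 11.28 in set 3, 1.54 ± 0.22, adjusted p = 1.17e-05) and in WT cells (0.83 ± 0.22, adjusted p = 0.00343).

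Surface proteins of the Ly6 family rose in set 5 against set 3 in both genotypes. Ly6a (Sca-1), a marker of activated T cells, was at 16.53, 16.87 and 16.72 in KO cells, against 17.21, 17.26 and 17.26 in WT cells of set 5 (-0.54 ± 0.12, adjusted p = 0.00147), and the call was lost on the deposited scale (-0.15). Ly6e, which blocks entry of coronaviruses, did not pass between genotypes, at 0.10, -0.16 and -0.0026 in sets 3, 5 and 6. Ly6e rose in set 5 against set 3 to 16.43, 16.65 and 16.54 in KO cells, against 15.23, 14.70 and 15.02 in set 3 (1.56 ± 0.12, adjusted p = 7.97e-09), and by 1.82 ± 0.12, adjusted p = 2.27e-09 in WT cells. Ly6a rose by 0.95 ± 0.12, adjusted p = 2.29e-06 in KO cells and 1.41 ± 0.12, adjusted p = 3.31e-08 in WT cells.

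Over all roles, 40 of 53 members rose and 5 fell in KO cells of set 5 against set 3, beside 35.6% and 35.7% of all genes, and 31 rose and 14 fell in WT cells, beside 30.5% and 36.8%. As deposited the KO counts were 44 and 3, beside 49.8% and 23.4%. Between sets 6 and 5 few members were called. In KO cells 1 rose and 2 fell, beside 3.87% and 3.64% of all genes. These counts were 3 and 3 without KO replicate 2 of set 5. None fell without KO replicate 1 or 3 of set 5, nor without KO replicate 1 or 2 of set 6. With replicate number as a block within KO cells they were 3 and 3. In WT cells Ifi204 alone rose and 0 fell, beside 1.49% and 0.566%, with 0 in either direction without any 1 library, and 7 had an unadjusted p under 0.05. The members lower in KO cells of set 6 than of set 5 were Samhd1, given above, and Irf1 (14.78, 14.83 and 15.11 in set 6 and 15.28, 15.23 and 15.68 in set 5, -0.49 ± 0.14, adjusted p = 0.0448). The Irf1 call was lost without KO set 5 replicates 1 or 3 or KO set 6 replicates 1 or 2 (adjusted p of 0.0603 to 0.207) and on the deposited scale (-0.39).

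Further members were called between KO and WT cells on the deposited scale. In set 5 these were Irf2 (0.65), Irf7 (0.89), Gbp3 (0.72), Irgm2 (0.53), Ifih1 (0.79), Bst2 (0.50) and Slfn5 (0.95), all higher, beside Gbp5, Xaf1 and Ifi35 given above. In set 6 they were Irf7 (0.98), Gbp3 (0.40), Iigp1 (0.62), Isg20 (0.67), Oasl1 (0.77), Ifih1 (0.65), Slfn2 (0.59) and Ly6e (0.41), all higher, beside Xaf1 and Ifi35. In set 3 they were Ifi203 (-0.83), Slfn1 (-0.72) and Slfn5 (-1.09), all lower. The median gene was higher in KO cells by 0.39 in set 5 and 0.42 in set 6 on that scale.

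Upstream genes of the pathway were counted by the same test, beside 7.29% of all genes higher and 3.28% lower in set 3, 24.9% and 24.7% in set 5, and 18.8% and 18.5% in set 6. As deposited the shares were 50.1% and 8.08% in set 5 and 53.9% and 4.59% in set 6. Among ligands, 6 of 14 listed were measured, of which 4 were higher in KO cells of set 3, 1 was higher and 1 lower in set 5, and 2 were higher in set 6. As deposited, 3 were higher and 1 lower in set 5 and 4 higher in set 6. Ifng, the gene of interferon gamma, was higher in KO cells of set 3 (mean 15.26 in KO cells and 13.88 in WT cells, 1.38 ± 0.32, adjusted p = 0.00952), the set in which immunity GTPases were lower in KO cells. Whether the level of Ifng and those of the GTPases are linked was not tested. Ifng did not pass in set 5 (0.66 ± 0.32, adjusted p = 0.0918) or set 6 (0.40 ± 0.32, adjusted p = 0.344), although it did on the deposited scale (1.05 and 0.81). Il27 was higher in KO cells of set 3 (3.30 ± 0.67, adjusted p = 0.00447), with a WT library at the lowest value of its library. Ebi3, the partner of Il27 in the cytokine IL27, was higher in KO cells of set 3 (1.74 ± 0.41, adjusted p = 0.0118), set 5 (2.58 ± 0.41, adjusted p = 0.000101) and set 6 (1.51 ± 0.41, adjusted p = 0.0088), and Il18 in set 6 (2.48 ± 0.85, adjusted p = 0.0304). Ifna2 was called lower in KO cells of set 5 (-2.05 ± 0.64, adjusted p = 0.0137), where 2 of the 3 KO libraries were at their lowest value.

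Of 8 measured receptor genes, 0 passed in set 3, where 3 had an unadjusted p under 0.05, 4 were higher and 1 lower in KO cells of set 5, and 4 were higher and 2 lower in set 6. As deposited, 6 were higher and 0 lower in set 5 and 5 higher and 1 lower in set 6. Ifngr2, the signalling chain of the interferon gamma receptor, had the largest difference. It averaged 8.43 ± 0.46 in KO cells and 5.49 ± 0.93 in WT cells of set 5 (SD, n = 3 each, 2.94 ± 0.41, adjusted p = 2.99e-05 by limma), and 8.27 ± 0.11 in KO cells and 5.44 ± 0.79 in WT cells of set 6 (2.83 ± 0.41, adjusted p = 8.66e-05). In set 5 against set 3 Ifngr2 was not called in KO cells (0.07 ± 0.41, adjusted p = 0.88) and fell in WT cells (-3.64 ± 0.41, adjusted p = 8.51e-07). Ifngr1, the ligand-binding chain, did not pass in sets 3, 5 and 6 (0.62, 0.29 and -0.0047) and rose in set 5 against set 3 in both genotypes (2.07 ± 0.20 in KO cells and 2.40 ± 0.20 in WT cells).

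The type I receptor chain Ifnar2 was higher in KO cells of set 5 (0.45 ± 0.09, adjusted p = 0.000509) and set 6 (0.23 ± 0.09, adjusted p = 0.0464), while Ifnar1 did not pass (0.13 ± 0.13 and -0.10 ± 0.13). Il12rb1 was higher in KO cells of sets 5 and 6 (1.41 ± 0.12, adjusted p = 5.18e-07, and 0.97 ± 0.12, adjusted p = 2.7e-05), and Il12rb2, its partner in the IL12 receptor, was lower (-0.72 ± 0.27, adjusted p = 0.0375, and -1.32 ± 0.27, adjusted p = 0.00142). Il27ra was higher in both (1.03 ± 0.11, adjusted p = 3.43e-06, and 0.82 ± 0.11, adjusted p = 4.73e-05). Il10rb, a chain shared with the interferon lambda receptor, was lower in set 6 (-0.52 ± 0.15, adjusted p = 0.0115).

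Of 7 signal transducers, 6 were higher and 1 lower in KO cells of set 5, beside 24.9% and 24.7% of all genes, and 5 were higher and 1 lower in set 6, beside 18.8% and 18.5%, with 1 higher and 0 lower in set 3. As deposited, 6 were higher and 1 lower in both sets 5 and 6. Jak2, the kinase bound to Ifngr2, averaged 12.39 in KO cells and 10.33 in WT cells of set 5 (2.06 ± 0.14, adjusted p = 9.22e-08) and differed by 1.25 ± 0.14, adjusted p = 1.36e-05 in set 6 and 0.53 ± 0.14, adjusted p = 0.0267 in set 3. Stat2 averaged 12.12 in KO cells and 10.77 in WT cells of set 5 (1.35 ± 0.17, adjusted p = 1.37e-05) and differed by 1.19 ± 0.17, adjusted p = 8.66e-05 in set 6. Stat4, which carries the IL12 signal, was lower (-0.75 ± 0.13, adjusted p = 0.000233 in set 5, and -0.80 ± 0.13, adjusted p = 0.000251 in set 6).

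Inhibitors of the pathway counted 6 higher and 1 lower of 10 in KO cells of set 5, 5 higher and 1 lower in set 6, and 0 higher and 1 lower in set 3. As deposited, 9 were higher and 1 lower in set 5 and 8 higher and 1 lower in set 6. Irf2bp2, a corepressor that works with Irf2, was higher in KO cells of sets 5 and 6 (1.10 ± 0.08, adjusted p = 1.54e-07, and 0.77 ± 0.08, adjusted p = 6.9e-06), as were Cish, an inhibitor of cytokine receptors (1.10 ± 0.13, adjusted p = 7.51e-06, and 0.82 ± 0.13, adjusted p = 0.000196), and the STAT phosphatase Ptpn2 (0.39 ± 0.06, adjusted p = 0.000101, and 0.43 ± 0.06, adjusted p = 8.99e-05). Ptpn6, the phosphatase SHP-1, was lower in KO cells of all 3 sets (-0.55 ± 0.14, adjusted p = 0.0214 in set 3, -1.15 ± 0.14, adjusted p = 1.13e-05 in set 5 and -1.16 ± 0.14, adjusted p = 2.29e-05 in set 6).

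Among 81 measured interferon targets outside the member list, 14 were higher and 11 lower in KO cells of set 3, beside 7.29% and 3.28% of all genes. The counts were 30 and 11 in set 5, beside 24.9% and 24.7%, and 30 and 10 in set 6, beside 18.8% and 18.5%. As deposited they were 48 and 4 in set 5, beside 50.1% and 8.08%, and 51 and 3 in set 6, beside 53.9% and 4.59%. Cd274 (PD-L1), a ligand that restrains T cells, averaged 12.36 in KO cells and 9.96 in WT cells of set 5 (2.40 ± 0.18, adjusted p = 1.79e-07) and differed by 2.03 ± 0.18, adjusted p = 1.66e-06 in set 6. Ogfr, the opioid growth factor receptor, was higher in both (0.85 ± 0.10, adjusted p = 6.21e-06, and 0.80 ± 0.10, adjusted p = 2.32e-05). Slfn3, a schlafen, was lower in both (-1.16 ± 0.13, adjusted p = 5.76e-06, and -0.99 ± 0.13, adjusted p = 4.57e-05), in contrast to Slfn8. In set 5 Mavs, the adaptor of RNA sensors, was lower (-0.65 ± 0.10, adjusted p = 5.88e-05), and in set 6 Gvin1, a very large interferon-inducible GTPase, was lower (-1.38 ± 0.17, adjusted p = 1.97e-05). In set 3 the leading rises were Ifitm3, which blocks virus entry (2.01 ± 0.26, adjusted p = 0.000154), and the ADP-ribosyltransferase Parp12 (1.02 ± 0.16, adjusted p = 0.000822), and the leading falls were Phf11b (-1.36 ± 0.14, adjusted p = 2.71e-05) and the adaptor Myd88 (-0.45 ± 0.07, adjusted p = 0.000822). Gbp4, Gbp6 and Gbp10, guanylate-binding proteins outside the member list and named here after their values were seen, were lower in KO cells of set 3 (-0.49, -0.84 and -1.43) and higher in KO cells of set 5 (0.75, 1.2 and 2.02) and set 6 (0.30, 0.74 and 1.27), each call at an adjusted p under 0.05 by limma.

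Markers of other cell types moved with genotype in set 3, beside the rises of Ubd, Ifi204, Ifi27, Rsad2, Usp18 and Oas1a in KO cells there. Of all genes, 7.29% were higher and 3.28% lower in KO cells of set 3. Of 7 measured B cell markers 5 were higher in KO cells of set 3, Cd79a, Ms4a1 and Pax5 among them, and 0 lower, and their summed level was 8.07 to 11.1 in KO libraries and 6.30 to 7.51 in WT libraries (log2). Myeloid markers had 2 of 6 higher (Cd68 and Fcgr3), with a summed level of 7.43 to 7.96 in KO and 6.47 to 6.94 in WT libraries. Dendritic cell markers had 2 of 4 higher (Zbtb46 and Batf3), with a summed level of 9.59 to 10.7 in KO and 8.12 to 8.77 in WT libraries. Batf3, the most abundant of them, averaged 10.02 in KO and 8.21 in WT libraries. NK cell markers had 2 of 6 higher (Klrk1 and Klrc1), with a summed level of 11.7 to 12.5 in KO and 10.6 to 11.4 in WT libraries. T cell markers had 4 of 7 lower in KO cells (Cd3d, Cd3g, Cd247 and Cd4). The 2 CD8 markers were not called in any set, except for Cd8b1 on the deposited scale, higher in KO cells of set 5 (0.75). The part of these markers in the set 3 results was not tested.

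In sets 5 and 6, 0 of 7 B cell markers were called, with 0 at an unadjusted p under 0.05, and their summed level was 6.75 to 7.13 in KO and 5.74 to 6.02 in WT libraries of set 5 and 6.18 to 7.28 in KO and 5.86 to 6.35 in WT libraries of set 6. As deposited, Cd79b was called higher in KO cells of set 5 (1.69). After the shift to a common median, 24.9% of all genes were higher and 24.7% lower in set 5, and 18.8% and 18.5% in set 6. Of 7 T cell markers, Cd247 and Cd4 were higher in KO cells of both sets and Cd5 was lower in set 5. As deposited, 6 of these 7 were higher and 0 lower in each set. On that scale 50.1% of all genes were higher and 8.08% lower in set 5, and 53.9% and 4.59% in set 6. Myeloid markers had 2 of 6 higher in KO cells of both (Adgre1 and Cd68). The summed myeloid level was 9.26 to 9.65 in KO and 7.64 to 8.08 in WT libraries of set 5. In set 6 it was 10.1 to 10.2 in KO and 8.79 to 9.62 in WT libraries. These sums mostly reflect Cd68, which averaged 9.27 in KO and 7.42 in WT libraries of set 5, and 9.92 and 8.89 in set 6. All KO libraries of set 6 and all WT libraries of sets 5 and 6 had Lyz2 at their lowest value. In set 5, Batf3 of the 4 dendritic cell markers and Klrk1, Klra8 and Klrc1 of the 6 NK cell markers were higher in KO cells. The others were not called. Itgax, Zbtb46 and Ccr9 differed by -0.02, -0.72 and -1.07, and Klrb1c, Ncr1 and Eomes by 0.91, -0.41 and -0.88. The summed dendritic level was 7.06 to 8.77 in KO and 5.83 to 7.65 in WT libraries, and the summed NK level 9.84 to 10.48 in KO and 9.14 to 9.75 in WT libraries. Each WT library of set 5 had Itgax, Ncr1 and Klra8 at its lowest value, and each KO library had Ncr1 there. In set 6 no dendritic or NK cell marker was called, with 0 at an unadjusted p under 0.05. Their part in the results of sets 5 and 6 was not tested.

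Markers of other cell types also moved in set 5 against set 3, beside the rises of members within each genotype. Of all genes, 35.6% were higher and 35.7% lower in KO cells, and 30.5% and 36.8% in WT cells. The 2 of 7 B cell markers lower in WT cells, given below, are close to that share. In KO cells, 6 of 6 NK cell markers, 4 of 4 dendritic cell markers, 5 of 7 B cell markers and 2 of 2 CD8 markers were lower, and 0 of these were higher. Their median changes were -2.93 for NK, -3.23 for dendritic, -4.18 for B cell and -2.31 for CD8 markers (log2). In WT cells, 5 of 6 NK, 3 of 4 dendritic, 2 of 7 B cell and 2 of 2 CD8 markers were lower, and 1 B cell marker was higher, with medians of -2.83 for NK, -2.0 for dendritic, -1.72 for B cell and -2.47 for CD8 markers. Myeloid markers had 3 of 6 higher and 2 lower in KO cells and 3 higher and 1 lower in WT cells. T cell markers had 6 of 7 higher and 1 lower in KO cells and 4 higher and 2 lower in WT cells. The part of these markers in the changes between sets was not tested.

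The authors' deposited table of contrasts called 4 members higher (Ubd, Oas1a, Ifi27 and Ifi204) and 4 lower (Gbp2, Igtp, Ifi47 and Gbp5) in KO cells of set 3 at an adjusted p under 0.05. Of all 12547 genes, 409 were higher and 82 lower there. The authors' contrasts for KO cells of sets 5 and 6 name the WT cells only by 96. Whether WT cells of the same set or of both sets were used there is not stated, so they may differ from the comparisons above. For set 5 the authors' deposited table had 23 members higher and 2 lower, beside 4265 and 476 of all 12547 genes. For set 6 it had 18 higher and 3 lower, beside 4150 and 260 of all 12547 genes. The count of 18 is thus close to the share over all genes. Ubd and Irf8 were lower in both sets and Ifi204 in set 6. A further contrast with 96 in its name, of KO cells without a set number, had 24 members higher and 3 lower. Of all 12547 genes, 5224 were higher and 492 lower there, so the 24 higher are close to the share over all genes. In the authors' deposited table no member was called between sets 6 and 5 in either genotype. Of all 12547 genes, 58 were higher and 18 lower in KO cells, and 80 and 7 in WT cells.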

How the data were processed

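RNA-seq levels were deposited as log2 values per gene and library, made by the authors, whose processing notes name Salmon 1.9.0, edgeR, limma and build GRCm39 without saying which did what; the libraries were stranded poly(A) libraries, per the labels' protocols. The deposited log2 values are not counts, so no count model was used, and depth and counting error are unknown. The lowest value of a library was 1.0 to 1.11 and was shared by 149 to 350 genes. The authors' deposited table of contrasts, with its p-values, log2 fold changes and a moderated t score per gene, was used only where it is named.

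Each library was shifted to a common median of 9.34. The 6 group means were fitted with limma 3.58.1 (R 4.3.3) with a mean-variance trend and 12 residual degrees of freedom over the 12547 genes, and p-values were adjusted by the Benjamini-Hochberg method over all of them at a threshold of 0.05. A filter (at least 2 on the log2 scale in 3 libraries) removed no gene. Intervals cover 95%. The members and the gene lists were chosen with earlier results of these data known. Called members were named by role, up to 3 in each direction with the smallest adjusted p in a comparison, and up to 2 in each direction for each pathway list.

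Within a genotype, same-numbered libraries of sets 6 and 5 deviated together from their group means (correlations of 0.22 to 0.34 in KO and 0.12 to 0.16 in WT cells) and count as paired by the data, so a block within genotype was added after the data were seen. For sets 5 and 3 these correlations were 0.025 to 0.154 in KO and 0.069 to 0.074 in WT cells. They were not taken as pairs, although 5 of 6 KO and 6 of 6 WT libraries correlated best with their own number. These sets may thus not be independent. The script was tested on simulated data. Alternatives were the deposited scale, quantile normalization, filters, an added constant of 16, a minimum fold of 1.2, only the compared groups in the fit, replicate blocks and leaving out each library. Some genes of the pathway and marker lists are not reported here by name. Promoters came from RefSeq tables on GRCm38.p6 and were used as sequence only.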

Additional observations from a re-analysis of the deposited data

Results flagged for a closer look

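The KO minus WT difference of 28 members was not the same in set 5 as in set 3, and that of 22 members was not the same in set 6 as in set 3, by limma's test of the difference between sets (log2 ± SE, Benjamini-Hochberg adjusted over all genes). A positive value means that KO cells stood higher relative to WT cells in the later-numbered set. The reason for these changes was not tested.

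Among immunity GTPases, the difference of set 5 minus that of set 3 was 1.2 ± 0.27 (adjusted p = 0.00272) for Gbp2, 1.19 ± 0.17 (adjusted p = 0.000121) for Gbp5, 2.14 ± 0.29 (adjusted p = 8.5e-05) for Gbp8, 1.54 ± 0.22 (adjusted p = 0.000133) for Gbp9, 2.08 ± 0.19 (adjusted p = 6.76e-06) for Irgm1, 0.67 ± 0.19 (adjusted p = 0.0109) for Igtp, 0.96 ± 0.25 (adjusted p = 0.00703) for Iigp1, 1.42 ± 0.23 (adjusted p = 0.000281) for Tgtp1, 2.01 ± 0.20 (adjusted p = 1.21e-05) for Tgtp2 and 2.05 ± 0.19 (adjusted p = 8.57e-06) for Ifi47. Among regulatory factors, the difference of set 5 minus that of set 3 was 1.95 ± 0.20 (adjusted p = 1.31e-05) for Irf1, 0.58 ± 0.21 (adjusted p = 0.0366) for Irf2, -0.91 ± 0.25 (adjusted p = 0.00902) for Irf8 and 1.46 ± 0.16 (adjusted p = 2.49e-05) for Irf9. Among Ifit, Oas, Isg and sensor genes, the difference of set 5 minus that of set 3 was -1.73 ± 0.43 (adjusted p = 0.00509) for Isg15 and -3.58 ± 0.67 (adjusted p = 0.000871) for Ifi204. Among other effectors, the difference of set 5 minus that of set 3 was -1.54 ± 0.46 (adjusted p = 0.0157) for Rsad2, 0.81 ± 0.30 (adjusted p = 0.0466) for Samhd1, 1.29 ± 0.42 (adjusted p = 0.025) for Rtp4 and -1.13 ± 0.36 (adjusted p = 0.0223) for Ifi27. Among ubiquitin and ADP-ribose genes, the difference of set 5 minus that of set 3 was 1.51 ± 0.25 (adjusted p = 0.000316) for Trim21, -8.41 ± 0.96 (adjusted p = 2.84e-05) for Ubd, 1.01 ± 0.17 (adjusted p = 0.000393) for Parp14 and 1.17 ± 0.22 (adjusted p = 0.000953) for Dtx3l. Among schlafens and Ly6 genes, the difference of set 5 minus that of set 3 was 0.74 ± 0.12 (adjusted p = 0.00027) for Slfn2, 1.63 ± 0.47 (adjusted p = 0.013) for Slfn5, 2.44 ± 0.31 (adjusted p = 5.91e-05) for Slfn8 and -0.46 ± 0.17 (adjusted p = 0.0411) for Ly6a.

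Among immunity GTPases, the difference of set 6 minus that of set 3 was 0.79 ± 0.27 (adjusted p = 0.0413) for Gbp2, 0.89 ± 0.17 (adjusted p = 0.00175) for Gbp5, 1.46 ± 0.29 (adjusted p = 0.00224) for Gbp8, 1.05 ± 0.22 (adjusted p = 0.00347) for Gbp9, 1.91 ± 0.19 (adjusted p = 1.89e-05) for Irgm1, 1.23 ± 0.23 (adjusted p = 0.0016) for Tgtp1, 1.81 ± 0.20 (adjusted p = 4.43e-05) for Tgtp2 and 1.71 ± 0.19 (adjusted p = 5.8e-05) for Ifi47. Among regulatory factors, the difference of set 6 minus that of set 3 was 1.85 ± 0.20 (adjusted p = 3.94e-05) for Irf1, -1.10 ± 0.25 (adjusted p = 0.00498) for Irf8 and 1.28 ± 0.16 (adjusted p = 0.000138) for Irf9. Among Ifit, Oas, Isg and sensor genes, the difference of set 6 minus that of set 3 was -4.35 ± 0.67 (adjusted p = 0.000524) for Ifi204. Among other effectors, the difference of set 6 minus that of set 3 was -1.38 ± 0.46 (adjusted p = 0.0389) for Rsad2, 1.43 ± 0.42 (adjusted p = 0.0229) for Rtp4, -1.07 ± 0.36 (adjusted p = 0.0418) for Ifi27 and 0.51 ± 0.10 (adjusted p = 0.00245) for Bst2. Among ubiquitin and ADP-ribose genes, the difference of set 6 minus that of set 3 was 1.28 ± 0.25 (adjusted p = 0.00207) for Trim21, -7.18 ± 0.96 (adjusted p = 0.00019) for Ubd, 0.87 ± 0.17 (adjusted p = 0.00222) for Parp14 and 0.85 ± 0.22 (adjusted p = 0.0128) for Dtx3l. Among schlafens and Ly6 genes, the difference of set 6 minus that of set 3 was 0.46 ± 0.12 (adjusted p = 0.0115) for Slfn2 and 1.80 ± 0.31 (adjusted p = 0.000933) for Slfn8.

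For Ubd and Ifi204, KO libraries were above WT libraries in set 3 and below them in set 6, and for Irgm1, Tgtp1, Tgtp2 and Ifi47 KO libraries were below WT libraries in set 3 and above them in sets 5 and 6. On the deposited scale the calls of set 5 minus set 3 were lost for Irf8 (-0.50, adjusted p = 0.105), Ly6a (-0.046, adjusted p = 0.842), Ifi27 (-0.72, adjusted p = 0.111) and Rsad2 (-1.12, adjusted p = 0.0526). Those of set 6 minus set 3 were lost there for Ifi27 (-0.63, adjusted p = 0.159) and Rsad2 (-0.95, adjusted p = 0.099). Single libraries decided some of these calls. Only up to 3 calls of a role and direction in a contrast were repeated without single libraries. The other flagged calls, those of Gbp2, Igtp and Iigp1 among them, were not checked in this way. For set 5 minus set 3, Irf2 was lost without KO set 3 replicates 2 or 3 or KO set 5 replicates 2 or 3 or WT set 3 replicates 1 or 3 or WT set 5 replicates 1 or 2 (adjusted p of 0.0598 to 0.0976). The Samhd1 call was lost without KO set 3 replicates 1 or 2 or KO set 5 replicates 1 or 3 or WT set 3 replicate 3 or WT set 5 replicates 1, 2 or 3 (adjusted p of 0.0628 to 0.126). The Ly6a call was lost without KO set 3 replicates 1 or 3 or KO set 5 replicates 1 or 3 or WT set 3 replicates 1 or 2 or WT set 5 replicates 1, 2 or 3 (adjusted p of 0.059 to 0.109). The Rtp4 call was lost without KO set 3 replicate 2 or KO set 5 replicate 3 or WT set 3 replicate 3 or WT set 5 replicate 1 (adjusted p of 0.0532 to 0.0714). That of Ifi27 was lost without KO set 3 replicates 1 or 3 or WT set 3 replicates 1 or 2 or WT set 5 replicate 3 (adjusted p of 0.0516 to 0.061). For set 6 minus set 3, Rtp4 was lost without KO set 6 replicate 3 or WT set 3 replicate 3 or WT set 6 replicate 1 (adjusted p of 0.0567 to 0.0646). Ifi27 was lost without KO set 3 replicates 1 or 3 or KO set 6 replicates 1, 2 or 3 or WT set 3 replicates 1 or 2 or WT set 6 replicates 1, 2 or 3 (adjusted p of 0.0616 to 0.104). Rsad2 was lost without KO set 3 replicates 1 or 3 or KO set 6 replicate 1 or WT set 3 replicates 1 or 2 or WT set 6 replicates 1, 2 or 3 (adjusted p of 0.0534 to 0.0954).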

How the results depend on the processing

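On the deposited scale 28 were higher and 2 lower in set 5, 27 and 4 in set 6, 26 and 3 in set 6 minus set 3, and 3 were lower in set 5 minus set 3. Of all genes, 50.1% were higher in set 5, 53.9% in set 6 and 46.2% in set 6 minus set 3 on that scale. The deposited scale also gave 3 lower in KO cells of set 5 against set 3, 2 higher and 1 lower in KO cells of set 6 against set 5, 0 GTPases lower in set 6, 0 Ifit, Oas and Isg genes lower in set 5, and 3 higher and 0 lower in set 6. Trim25 turned to 0.16 in set 5 and 0.077 in set 6, and Bst2 to 0.027 in KO cells of set 5 against set 3. With the compared groups only in the fit, 1 was higher and 5 lower in set 3, 3 lower in set 6 minus set 3, 0 higher and 1 lower in KO cells of set 6 against set 5, and 3 higher and 2 lower in WT cells. In that fit 1 GTPase was lower in set 5 and 2 in set 6, and of the Ifit, Oas and Isg genes 0 were higher in set 3 and 2 lower in set 6. A minimum fold of 1.2 left 4 lower in set 3, all GTPases, 2 lower in set 5, 4 in set 6, 4 in set 5 minus set 3 and 3 in set 6 minus set 3. It left 3 lower in KO cells of set 5 against set 3, 0 in either direction in KO cells and 0 higher in WT cells of set 6 against set 5, and 0 lower GTPases in set 6 and Ifit, Oas and Isg genes in sets 5 and 6. The cause was not tested.

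Same-numbered KO and WT libraries were not taken as pairs: their deviations from group means had correlations of -0.08 to 0.18, and 2, 2 and 1 of 6 libraries correlated best with their own number in sets 3, 5 and 6. When replicate number entered as a block in the KO and WT comparisons, 16 members were lower in set 3, with 2 Ifit, Oas and Isg genes higher and 1 lower. That block gave 2 GTPases and 2 Ifit, Oas and Isg genes lower in set 6 and 5 members lower in KO cells of set 6 against set 5, and 149 of 149 named calls kept their side of the threshold. The block within genotype, added after the data were seen, gave 3 higher in KO cells of set 6 against set 5, an added constant 2 higher, and quantile normalization 1 lower.

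Leaving out 1 library gave 3 to 9 members higher and 7 to 13 lower in set 3 (6 to 8 GTPases lower, 1 to 4 Ifit, Oas and Isg genes higher), 15 to 18 and 4 to 6 in set 5, and 13 to 16 and 5 to 11 in set 6 (0 to 2 GTPases lower, 0 to 2 Ifit, Oas and Isg genes lower). It gave 18 to 23 and 5 to 9 in set 5 minus set 3, 15 to 19 and 3 to 7 in set 6 minus set 3, 0 in set 6 minus set 5, 1 to 3 and 0 to 3 in KO cells of set 6 against set 5, and 0 in WT cells. Of 1122 such repeats of named calls, 1007 held and 115 were lost, none with a change of sign. Named calls were those with the smallest adjusted p of their role and direction by limma. This share, and that under the replicate block, therefore does not extend to all called members. Depth is unknown, so whether low values limit a call was not tested.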
